A study of Mus musculus with 18 samples.

Results

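The genes described here are 9 feedback inhibitors of NF-κB signaling: Nfkbia, Nfkbib, Nfkbie, Nfkbiz, Bcl3, Tnfaip3, Tnip1, Cyld and Irak3. They were taken by gene symbol from a count table of 36757 genes, by a rule that uses symbols and no measured value, and each symbol matched a single row. Every member had reads in all 18 libraries, from 53 counts for Nfkbie to 9878 counts for Nfkbiz, and all 9 passed the filter on low counts in every comparison.

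The libraries were RNA sequencing of colorectal material from C57BL/6 mice that entered the models at 6 to 8 weeks of age, in 6 groups of 3. In the chronic colitis model (DSS), mice drank 2% dextran sodium sulfate for 7 days and plain water for 14, in repeated cycles, and tissue was taken 4 weeks after the last cycle. In the colitis-associated cancer model (AOM/DSS), the carcinogen azoxymethane was injected at 10 mg/kg before such cycles, and the organoids were grown in matrigel from tumour-bearing pieces of AOM/DSS intestine. Each model had 3 libraries labelled wild type (RNF138 fl/fl) and 3 labelled RNF138-/-, and the comparison of these labels addresses how loss of the ubiquitin ligase RNF138 bears on NF-κB signaling. Mice of both sexes were used according to the methods of the study. All 6 groups share the DSS exposure, and no untreated group was analysed here. Which cells carry the deletion, and whether replicates were separate animals or cultures, is not given in the sources used here, so p-values measure the spread between these libraries, which may be technical.

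Total counts ran from 11514716 to 24390082 per library. The targeted gene, Rnf138, was not detectably lower in the libraries labelled RNF138-/-: it had 17.99 to 19.4 CPM (counts scaled by TMM to a common library size) against 15.6 to 25.1 in wild type in DSS, 39.7 to 45.8 against 21.5 to 27.6 in AOM/DSS, where it was higher (1.65-fold, adjusted p = 0.0426), and 42.8 to 50.3 against 37.7 to 55.7 in organoids. By edgeR its ratio was 0.962 in DSS (adjusted p = 0.963) and 0.934 in organoids (adjusted p = 0.668). Gene counts do not show whether reads cover a deleted exon, and these libraries are named by their label throughout. In organoids the genotype labels also separate the sexes: the wild-type libraries had 391 to 464 CPM of Xist and no reads from 4 Y-linked genes, and those labelled RNF138-/- had at most 0.159 CPM of Xist and 242 to 281 CPM over the Y-linked genes. All 12 tissue libraries had Y-linked reads (114 to 229 CPM) and at most 0.585 CPM of Xist. Genotype and sex cannot be told apart in organoids.

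The organoid libraries were checked against marker genes of colonic cell types. All 10 epithelial markers were above 1 CPM on average in both organoid groups, with summed levels of 10392 to 11542 CPM in wild type and 6176 to 9097 CPM in those labelled RNF138-/-. The 6 fibroblast markers, such as Col1a1 and Dcn, were also all detected and reached 9097 to 23238 CPM in wild-type organoids and 40427 to 49682 CPM in those labelled RNF138-/-, against 924 to 1733 CPM in the 12 tissue libraries. Ptprc, the pan-leukocyte marker CD45, was at 0.0577 to 1.12 CPM in organoids and at 25.8 to 78.9 CPM in tissue. Of 8 T cell markers, 2 exceeded 1 CPM on average in each organoid group, with sums of 1.08 to 3.11 CPM in wild type and 7.54 to 11.3 CPM under the RNF138-/- label, while Cd3e and Cd2 were at 0 in both. Of 8 macrophage markers, 4 exceeded 1 CPM in wild-type organoids (sums of 47.7 to 64.9 CPM, with C1qc at 0) and 8 in those labelled RNF138-/- (69.0 to 91.1 CPM), against sums of 180.3 to 705 CPM in tissue. In AOM/DSS tissue, the libraries labelled RNF138-/- held 113 to 242 CPM of smooth muscle markers against 2508 to 8388 CPM in wild type, and 125 to 215 CPM of B and plasma cell markers against 1508 to 2270 CPM. Epithelial markers there summed to 7831 to 9822 CPM under the RNF138-/- label and to 10766 to 21511 CPM in wild type. The part of these differences in the results below was not tested, and in such bulk RNA fewer cells of a type and less RNA per cell cannot be told apart.

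**Figure D1:**
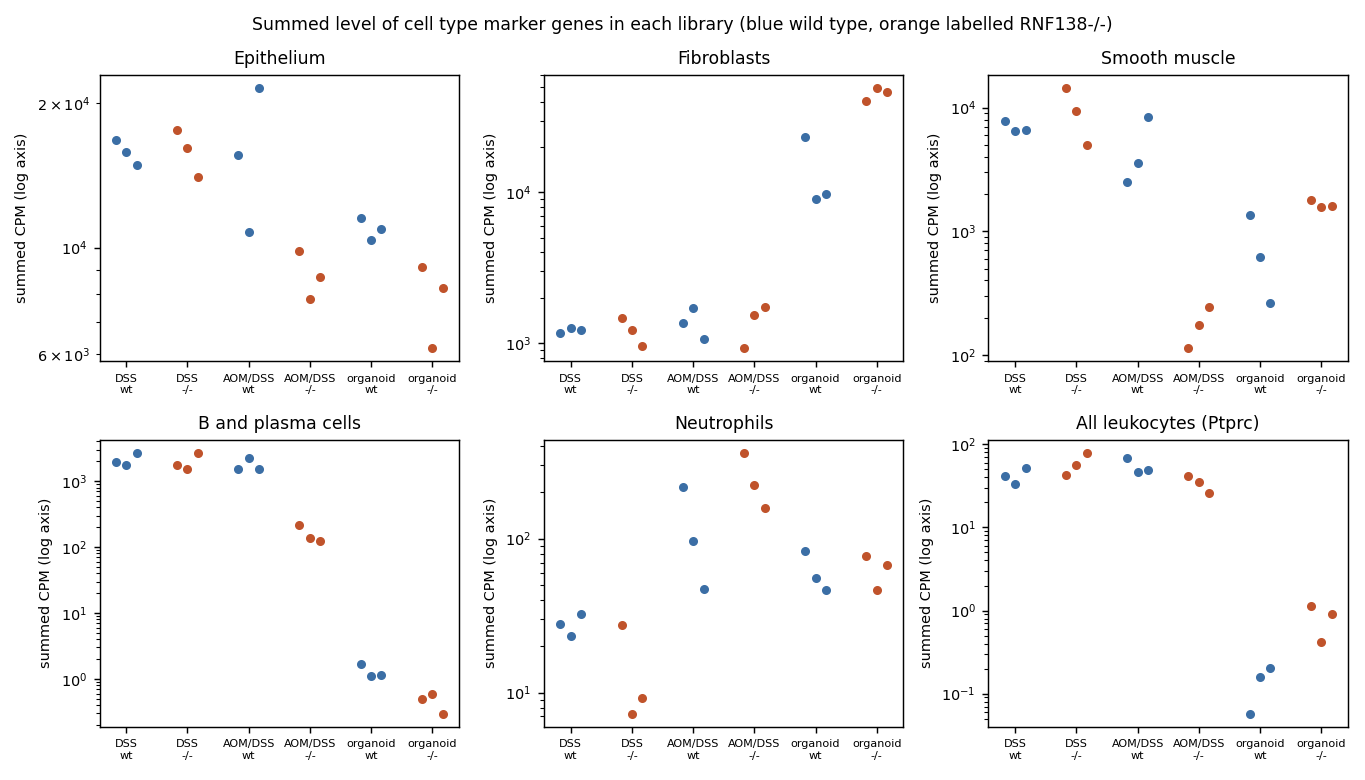
Summed TMM-scaled CPM (y axis, log scale) of the marker genes of 6 cell types, 1 point per library, in the 6 groups on the x axis (blue wild type, orange labelled RNF138-/-). Fibroblast markers lie between 9097 and 49682 CPM in the 6 organoid libraries and at no more than 1733 CPM in tissue, and smooth muscle and B and plasma cell markers are low in AOM/DSS tissue labelled RNF138-/-.

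NF-κB is a family of transcription factors that IκB proteins hold inactive in the cytoplasm until a receptor signal, carried by ubiquitin chains and the IKK kinases, has the IκB destroyed. The released factors switch on cytokine and chemokine genes and, among their targets, genes for their own inhibitors, so that the response limits itself. In the intestine, loss of several of these brakes is known to go with inflammation of the mucosa. The 9 members act at different steps: Nfkbia, Nfkbib and Nfkbie encode the cytoplasmic IκBα, IκBβ and IκBε, Nfkbiz and Bcl3 encode the nuclear IκB family members IκBζ and Bcl-3, which bind NF-κB on DNA and can activate or repress genes, Tnfaip3 encodes the ubiquitin-editing enzyme A20 and Tnip1 its binding partner ABIN1, Cyld encodes a deubiquitinase, and Irak3 encodes IRAK-M, an inhibitor of signaling from Toll-like and IL-1 receptors.

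Because several of these genes are known targets of NF-κB, their promoters were read for the κB consensus, a degenerate 10-base motif, on both strands. Promoters were the RefSeq windows of 300 bases from 250 before to 50 after a gene's start (assembly GRCm38.p6), and 8 of the 9 members were in that table, all but Nfkbiz, with 10 promoters. A match was found for Nfkbia, Nfkbie, Bcl3, Tnfaip3, Tnip1 and Cyld, that is in 6 of the 10 member promoters, whereas 1480 of all 32851 promoters (4.51%) held at least 1 match. At least 2 matches, overlapping ones included, were in 182 promoters (0.554%), among them Tnfaip3, with matches 125 and 12 bases before the start, and Tnip1, whose 3 matches overlap in a single stretch. Neither Nfkbib, nor either promoter of Irak3, nor the second Tnfaip3 promoter (chr10:19011914-19012213) holds these letters, and a match is a description of sequence and not of binding. The 5 promoters printed here are those of Nfkbia, Nfkbie and Tnfaip3, which with Nfkbiz have the widest ranges of group means, of the A20 partner Tnip1, and of Cyld, the member that moves least. Each is written 5′ to 3′ on the gene's own strand, and capitals mark the κB matches, which stand as their reverse complement where the match is on the other strand.
Nfkbia, chr12:55492598-55492897, minus strand: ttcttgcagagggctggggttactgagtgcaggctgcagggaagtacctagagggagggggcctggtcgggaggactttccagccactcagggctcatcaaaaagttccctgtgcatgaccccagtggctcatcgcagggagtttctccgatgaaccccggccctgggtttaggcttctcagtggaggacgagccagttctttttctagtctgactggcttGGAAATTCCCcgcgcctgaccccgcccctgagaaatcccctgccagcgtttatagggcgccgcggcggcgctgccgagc
Nfkbie, chr17:45555450-45555749, plus strand: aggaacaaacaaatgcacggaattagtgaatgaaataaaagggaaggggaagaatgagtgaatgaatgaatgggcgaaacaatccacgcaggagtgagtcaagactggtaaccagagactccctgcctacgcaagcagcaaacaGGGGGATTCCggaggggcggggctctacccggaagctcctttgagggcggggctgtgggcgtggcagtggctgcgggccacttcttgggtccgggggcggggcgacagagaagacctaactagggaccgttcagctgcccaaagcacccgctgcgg
Tnfaip3, chr10:19015361-19015660, minus strand: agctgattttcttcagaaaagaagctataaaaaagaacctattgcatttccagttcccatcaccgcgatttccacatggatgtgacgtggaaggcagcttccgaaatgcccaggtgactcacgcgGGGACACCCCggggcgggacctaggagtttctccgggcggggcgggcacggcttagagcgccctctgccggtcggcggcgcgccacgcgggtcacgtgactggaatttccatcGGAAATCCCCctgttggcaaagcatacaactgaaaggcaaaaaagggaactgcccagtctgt
Tnip1, chr11:54962891-54963190, minus strand: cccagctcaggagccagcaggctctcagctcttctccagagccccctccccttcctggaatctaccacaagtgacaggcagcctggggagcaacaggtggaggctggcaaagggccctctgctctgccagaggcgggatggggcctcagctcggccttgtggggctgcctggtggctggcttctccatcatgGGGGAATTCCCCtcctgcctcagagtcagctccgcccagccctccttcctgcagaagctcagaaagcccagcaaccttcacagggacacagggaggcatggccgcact
Cyld, chr8:88696778-88697077, plus strand: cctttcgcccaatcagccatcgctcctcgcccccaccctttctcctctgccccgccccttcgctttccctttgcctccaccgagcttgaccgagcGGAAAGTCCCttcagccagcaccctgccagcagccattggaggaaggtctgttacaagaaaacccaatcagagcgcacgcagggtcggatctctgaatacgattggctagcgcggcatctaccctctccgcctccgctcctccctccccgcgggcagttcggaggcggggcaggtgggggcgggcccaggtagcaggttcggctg
The Cyld match lies 155 bases before the start, that of Nfkbie 106 bases and that of Nfkbia 29 bases before it, so a match was present both in members whose RNA level differed widely between groups and in Cyld, whose level did not.

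Per kilobase of exon, the members covered a wide range of levels. Averaged over the 18 libraries, Nfkbia stood highest at 92.2 CPM per kilobase, followed by Nfkbiz at 30.7, Tnip1 at 26.8 and Tnfaip3 at 19.4. Bcl3 (17.1) and Nfkbib (16.9) were close to each other, and Nfkbie (5.72), Cyld (4.04) and Irak3 (2.85) were lowest. Nfkbia held the first place in each of the 6 groups. The spread between groups, measured as the ratio of the highest to the lowest of the 6 group means of CPM, had another order: Nfkbiz differed 8.64-fold, Tnfaip3 8.43-fold, Nfkbie 6.50-fold, Nfkbia 5.02-fold, Irak3 3.99-fold, Tnip1 2.50-fold, Nfkbib 2.19-fold, Bcl3 1.96-fold and Cyld 1.26-fold. In 7 of the 9 members, all but Bcl3 and Cyld, the highest group was the organoids labelled RNF138-/-.

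**Figure D2:**
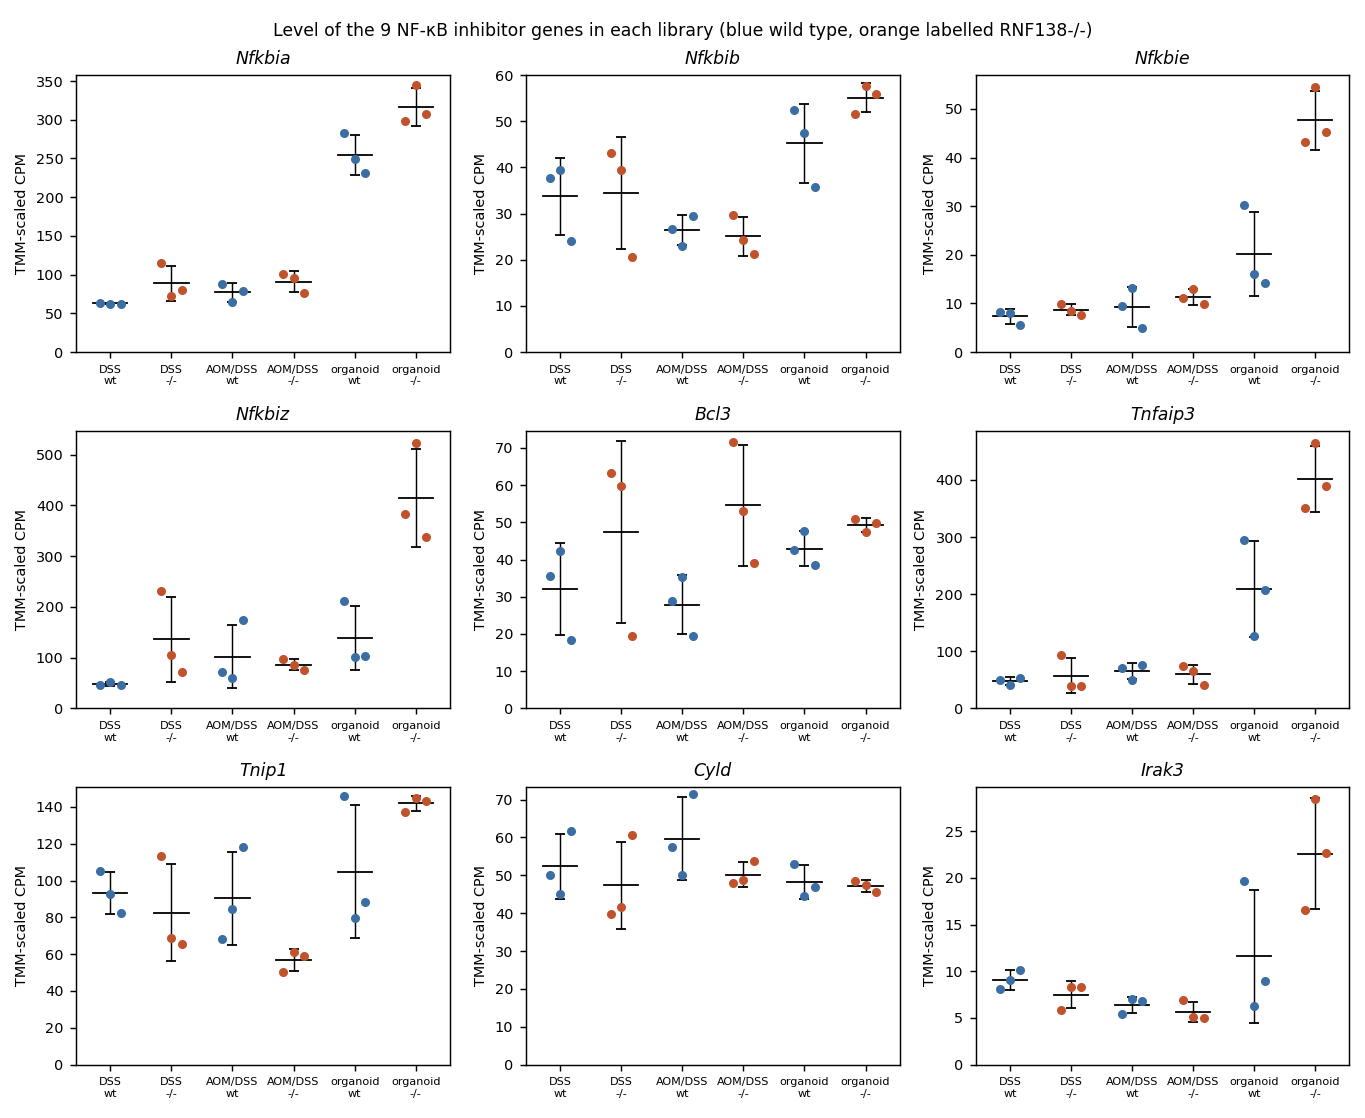
TMM-scaled CPM (y axis, from 0) of each member in the 18 libraries, by group on the x axis (blue wild type, orange labelled RNF138-/-), with 1 point per library and black lines for the group mean ± SD (n = 3). Nfkbia, Nfkbie and Tnfaip3 lie higher in every organoid library than in any tissue library, Nfkbiz is highest in the organoids labelled RNF138-/-, and Cyld stays between 39.9 and 71.6 CPM.

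In what follows, a difference passed where its p adjusted over all genes (edgeR, Benjamini-Hochberg) was under 0.05. Between genotypes 0.0902% of genes tested passed in DSS, 6.38% in AOM/DSS and 35.5% in organoids, and the CPM of the groups did not overlap in 17.2%, 45.2% and 53.2% of genes.

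Among the cytoplasmic IκBs, Nfkbia (ENSMUSG00000021025.8, mm10 chr12:55489410-55492647) marked the difference between tissue and organoids most evenly. In DSS tissue its CPM were 63.8, 62.7 and 62.4 in wild type and 115, 72.3 and 80.0 in the libraries labelled RNF138-/-. In AOM/DSS tissue they were 88.4, 64.2 and 79.1 against 101, 96.0 and 76.1. Organoids had 283, 249 and 231 CPM in wild type and 298, 344 and 307 CPM in those labelled RNF138-/-, so the lowest organoid library (231 CPM) stood above the highest tissue library (115 CPM). Against AOM/DSS tissue of the same genotype label, Nfkbia was 3.29-fold higher in wild-type organoids (log2 fold change 1.72 ± 0.18 SE, adjusted p = 1.57e-06) and 3.47-fold higher in those labelled RNF138-/- (1.80 ± 0.18 SE, adjusted p = 7.95e-07). Between genotypes the groups did not overlap in DSS or organoids, but the ratios, 1.41 in DSS (adjusted p = 0.454), 1.14 in AOM/DSS (adjusted p = 0.476) and 1.21 in organoids (adjusted p = 0.1098), did not pass.

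Nfkbie (ENSMUSG00000023947.7, chr17:45555703-45563169) was the least abundant IκB and was higher in the organoids labelled RNF138-/- than in any other library. It had 8.32, 8.14 and 5.51 CPM in wild-type DSS tissue and 9.87, 8.52 and 7.69 CPM in the DSS libraries labelled RNF138-/-. AOM/DSS tissue had 9.48, 13.3 and 5.02 CPM in wild type and 11.2, 13.1 and 9.87 CPM under the RNF138-/- label, and in both tissue models the genotypes overlapped. In organoids it had 30.2, 16.0 and 14.3 CPM in wild type and 43.1, 54.6 and 45.2 CPM in those labelled RNF138-/-, which did not overlap. The difference in organoids was 2.30-fold (log2 fold change 1.20 ± 0.27 SE, adjusted p = 0.0114) and passed with adjusted p of at most 0.0472 under all 12 alternatives. The ratios in DSS (1.18, adjusted p = 0.806) and AOM/DSS (1.18, adjusted p = 0.645) did not pass. Organoids were higher than AOM/DSS tissue in wild type (2.16-fold, adjusted p = 0.00652) and under the RNF138-/- label (4.19-fold, adjusted p = 5.12e-05). The wild-type call rests on replicate 1 of the organoids, whose 30.2 CPM is the highest of its group: without it the log2 fold change was 0.70 (adjusted p = 0.0635). That library had 23238 CPM of fibroblast markers against 9097 and 9748 CPM, and 1359 CPM of smooth muscle markers against 621 and 265 CPM. Its epithelial sum differed less (11542 against 10392 and 10952 CPM), and the part of these markers was not tested.

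Nfkbib (ENSMUSG00000030595.15, chr7:28758251-28767512) was the most even of the 3 cytoplasmic IκBs. Its CPM were 37.7, 39.4 and 24.2 in wild-type DSS tissue and 43.2, 39.5 and 20.6 in the DSS libraries labelled RNF138-/-, so that replicate 3 was low under both labels. In AOM/DSS tissue it had 26.8, 23.0 and 29.4 CPM against 29.6, 24.4 and 21.3 CPM, and in organoids 52.5, 47.5 and 35.7 CPM against 51.6, 57.7 and 56.0 CPM. Genotypes overlapped in every model, and the ratios were 1.02, 0.916 and 1.19 in DSS, AOM/DSS and organoids, none of which passed. Organoids were higher than AOM/DSS tissue in wild type (1.71-fold, adjusted p = 0.0136) and under the RNF138-/- label (2.20-fold, adjusted p = 0.00109). The wild-type call was lost without AOM/DSS replicate 2 (adjusted p = 0.0516) or without organoid replicate 1 (adjusted p = 0.0579). The gene shares 356 exon bases with Ccer2 and Sirt2 on the opposite strand, and whether strand was used in counting is not given, so some reads may belong to these neighbours.

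Of the nuclear IκB family members, Nfkbiz (ENSMUSG00000035356.16, chr16:55811375-55838899) varied most between genotypes. In DSS tissue the wild-type libraries had 46.4, 52.2 and 45.2 CPM and those labelled RNF138-/- had 231, 106 and 71.6 CPM. These groups did not overlap, and replicate 1 under the RNF138-/- label was more than 2-fold above its companions. That library had the highest sums in its group of smooth muscle (14540 CPM), epithelial (17588.5 CPM), fibroblast (1458 CPM) and neutrophil markers (27.3 CPM). Its Ptprc and endothelial marker levels were the lowest in the group. In organoids wild type had 211, 102 and 104 CPM and the libraries labelled RNF138-/- had 383, 523 and 337 CPM, again without overlap. AOM/DSS tissue had 72.1, 60.5 and 173 CPM in wild type, where replicate 3 stood apart, and 97.5, 85.8 and 75.3 CPM under the RNF138-/- label. That wild-type replicate had the highest sums in its group of smooth muscle (8388 CPM) and epithelial markers (21511 CPM). Its sums of fibroblast, macrophage, neutrophil and endothelial markers were the lowest in the group. The organoid difference passed (2.91-fold, log2 fold change 1.54 ± 0.30 SE, adjusted p = 0.00736) and did so in all 12 alternatives, with adjusted p of at most 0.0311. The DSS difference was of like size (2.83-fold, log2 fold change 1.50, 95% interval 0.60 to 2.40) but did not pass by edgeR (adjusted p = 0.222). It passed by edgeR with no filter on low counts (adjusted p = 0.00884) and with a Y-linked covariate (0.0466). DESeq2, run on unfiltered counts, gave an adjusted p of 0.0105. Wild-type DSS tissue, lowest in Nfkbiz, had 6513 to 7778 CPM of smooth muscle markers. The organoids labelled RNF138-/-, highest in Nfkbiz, had 1584 to 1780 CPM. The part of these cell type markers in the Nfkbiz values was not tested. Without replicate 3 of the DSS group labelled RNF138-/-, the DSS log2 fold change was 1.80 and passed (adjusted p = 0.0383), and without replicate 1 it was 0.89 (adjusted p = 0.182). In AOM/DSS the log2 fold change was -0.30 (95% interval -1.28 to 0.68, adjusted p = 0.623), and it was 0.35 without replicate 3 of the wild type and 0.044 when libraries were scaled by total counts.

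Bcl3 (ENSMUSG00000053175.17, chr7:19808462-19822770) was the member with the highest genotype ratio in AOM/DSS tissue. There it had 29.0, 35.2 and 19.4 CPM in wild type and 71.6, 52.9 and 39.2 CPM in the libraries labelled RNF138-/-, which did not overlap. The ratio was 1.89 (log2 fold change 0.92 ± 0.29 SE), and the adjusted p was 0.0896 by edgeR and 0.0388 by DESeq2. In DSS tissue it had 35.6, 42.3 and 18.4 CPM against 63.4, 59.8 and 19.4 CPM, with replicate 3 low under both labels, as for Nfkbib. Organoids were uniform, with 42.4, 47.8 and 38.6 CPM in wild type and 50.9, 47.3 and 49.8 CPM under the RNF138-/- label (ratio 1.12, adjusted p = 0.315). Its organoid levels did not differ from AOM/DSS tissue beyond the test in wild type (ratio 1.54, adjusted p = 0.160) or under the RNF138-/- label (ratio 0.905, adjusted p = 0.752). In AOM/DSS tissue the neutrophil markers were at 159 to 361 CPM under the RNF138-/- label and at 47.0 to 216 CPM in wild type, and their part in the Bcl3 values was not tested. The gene shares 161 exon bases with Gm16175 on the opposite strand.

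Tnfaip3 (ENSMUSG00000019850.11, chr10:19000910-19015657), the gene of A20, separated organoids from tissue in every library. DSS tissue had 49.3, 40.0 and 53.4 CPM in wild type and 92.9, 38.9 and 39.9 CPM under the RNF138-/- label, and AOM/DSS tissue 71.3, 50.3 and 76.5 CPM against 73.7, 64.5 and 41.2 CPM. Neither tissue model separated the genotypes (ratios 1.20, adjusted p = 0.856, and 0.874, adjusted p = 0.623). Organoids had 295, 127 and 207 CPM in wild type and 350.1, 464 and 389.7 CPM under the RNF138-/- label, so that the lowest organoid library (127 CPM) exceeded the highest tissue library (92.9 CPM). The genotype difference in organoids was 1.87-fold (log2 fold change 0.90 ± 0.27 SE, adjusted p = 0.0323), under the 2-fold mark. It lost its call when 1 of 5 libraries was left out (adjusted p 0.0535 without wild-type replicate 2, 0.0730 without wild-type replicate 3, and 0.0549, 0.105 and 0.0802 without replicates 1, 2 and 3 under the RNF138-/- label). The call was also lost with a replicate block (0.0538) and with all 18 libraries in one fit (0.0688). Organoids stood above AOM/DSS tissue 3.18-fold in wild type (adjusted p = 0.000683) and 6.71-fold under the RNF138-/- label (log2 fold change 2.75 ± 0.36 SE, adjusted p = 9.71e-06), the largest ratio of any member in that comparison.

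Tnip1 (ENSMUSG00000020400.17, chr11:54910785-54962917), which encodes the A20 partner ABIN1, was the member with the lowest genotype ratio in AOM/DSS tissue. It had 68.1, 84.7 and 118 CPM in wild type and 50.4, 61.3 and 58.8 CPM under the RNF138-/- label, which did not overlap. The log2 fold change was -0.72 ± 0.23 SE, a ratio of 0.605, with an adjusted p of 0.0870. It ran from -0.90 to -0.46 when a library was left out. Wild-type replicate 3, at 118 CPM, is the library that also stood apart for Nfkbiz. In DSS tissue the values were 105, 92.6 and 82.2 CPM against 113, 68.9 and 65.6 CPM (ratio 0.883, adjusted p = 0.861), and in organoids 146, 79.7 and 88.4 CPM against 137, 145 and 143 CPM (ratio 1.32, adjusted p = 0.158). The spread of the wild-type organoids comes from replicate 1, without which the organoid log2 fold change was 0.73 and passed (adjusted p = 0.000847). Fibroblast and smooth muscle markers were also highest in that library within its group, and their part was not tested. Organoids labelled RNF138-/- were 2.50-fold above AOM/DSS tissue with that label (adjusted p = 0.000342), and wild-type organoids 1.16-fold above their tissue (adjusted p = 0.467).

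Cyld (ENSMUSG00000036712.15, chr8:88697028-88751945) was the flattest member. Its CPM were 50.1, 45.2 and 61.8 in wild-type DSS tissue, 39.9, 41.7 and 60.6 under the RNF138-/- label in DSS, 57.4, 49.99 and 71.6 in wild-type AOM/DSS and 47.9, 48.8 and 53.9 under the RNF138-/- label in AOM/DSS. In organoids it had 53.1, 44.5 and 46.9 CPM in wild type and 48.4, 47.5 and 45.5 CPM under the RNF138-/- label. The groups overlapped with each other, apart from wild-type AOM/DSS tissue and the organoids labelled RNF138-/-, and the genotype ratio was 0.954 in organoids, with a 95% interval of the log2 fold change from -0.31 to 0.18. No comparison of Cyld passed, with this exception: scaled by total counts, organoids were lower than AOM/DSS tissue by a log2 fold change of -0.45 in wild type (adjusted p = 0.0425) and -0.71 under the RNF138-/- label (adjusted p = 0.00266). Of the 50-base windows of its transcripts, 0.384% also occur in another gene, such as Rrm2b.

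Irak3 (ENSMUSG00000020227.10, chr10:120141648-120202130) was the least abundant member per kilobase over all libraries. DSS tissue had 8.04, 9.04 and 10.2 CPM in wild type and 5.80, 8.34 and 8.36 CPM under the RNF138-/- label, and AOM/DSS tissue 5.42, 7.01 and 6.82 CPM against 6.91, 5.10 and 4.98 CPM. Organoids had 19.7, 6.22 and 8.91 CPM in wild type, where replicate 1 stood apart, and 16.6, 28.5 and 22.7 CPM under the RNF138-/- label. Wild-type replicate 1 also had the highest sums of fibroblast and smooth muscle markers in its group, and their part was not tested. The ratio between the organoid genotypes was 1.89 (adjusted p = 0.0977 by edgeR, 0.0418 by DESeq2 and 0.00519 with no filter), and without that wild-type replicate the log2 fold change was 1.55 (adjusted p = 0.00238). Organoids labelled RNF138-/- were 3.99-fold above AOM/DSS tissue (adjusted p = 0.000138). In wild type the ratio was 1.82 (adjusted p = 0.0383), and the call ended when any of 4 libraries was left out: adjusted p was 0.123, 0.0628 and 0.0618 without AOM/DSS replicate 1, 2 or 3, and 0.483 without organoid replicate 1, with a log2 fold change of 0.24. Of its exon bases, 220 are shared with Gm47009 and Tmbim4 on the opposite strand.

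By model, the genotype comparison gave 3 members with higher levels under the RNF138-/- label in organoids, Nfkbie, Nfkbiz and Tnfaip3, and none in DSS or AOM/DSS tissue. In organoids, 35.5% of the 15294 genes tested passed (17.9% higher and 17.7% lower), so 3 of 9 members is a share near that of all genes. DESeq2 called 4 members and the fit with no filter also 4, the fourth being Irak3. Without wild-type replicate 1, 6 members passed, and 2 did in each of the other 5 fits without 1 library, with a replicate block and in the fit of 18 libraries, with Tnfaip3 lost each time. The median log2 fold change of the 9 members was 0.40 against -0.036 over all genes, and scaling by total counts shifted all genes by -0.20 and left the same 3 members past the test, while the share of all calls that were higher went from 50.3% to 29.9%. All 6 fibroblast markers passed as higher under the RNF138-/- label, and 5 of 10 epithelial markers as lower. Of 7 macrophage markers tested, 4 passed as higher and 0 as lower (median log2 fold change 1.49), and of 6 smooth muscle markers 2 passed as higher and 0 as lower (median 1.17). Their part in the members' values was not tested, and sex cannot be told apart from genotype here.

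**Figure D3:**
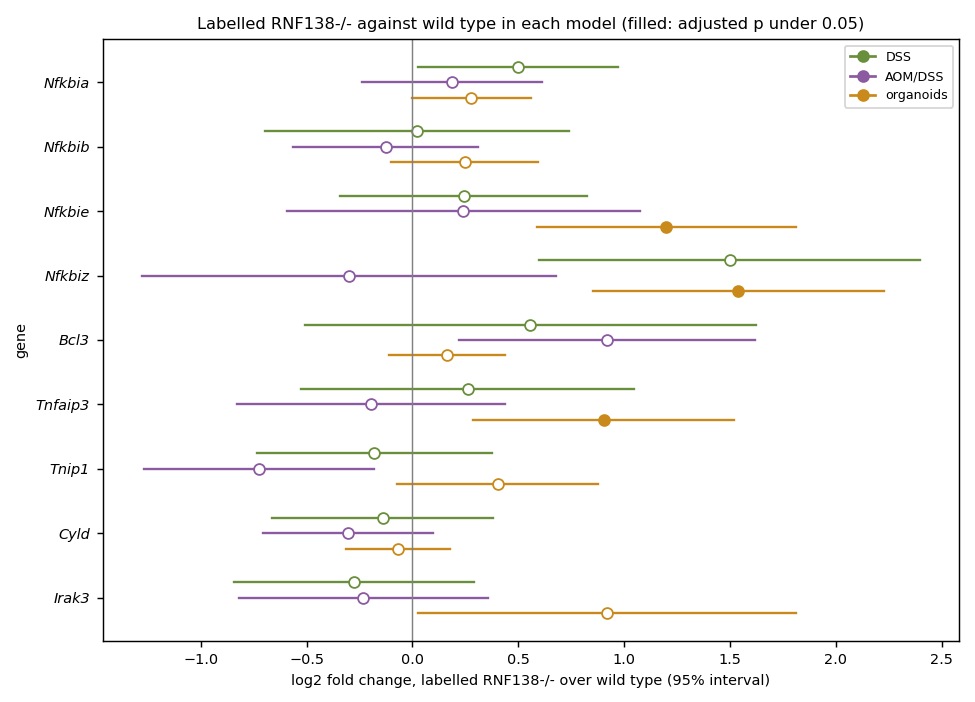
Log2 fold change (x axis) of each member (y axis) between libraries labelled RNF138-/- and wild type in DSS, AOM/DSS and organoids, with 95% intervals from edgeR (3 libraries against 3), filled where the adjusted p is under 0.05. Only Nfkbie, Nfkbiz and Tnfaip3 in organoids are filled, and Nfkbiz lies at about the same value in DSS as in organoids.

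In DSS tissue 0 of 9 members passed by edgeR, where 0.0902% of 16623 genes did. At an unadjusted p under 0.05, where 10.4% of genes lay, there were 2 members, Nfkbia and Nfkbiz, which were also the members whose genotype groups did not overlap (17.2% of genes), and DESeq2 called 1, Nfkbiz. The median over the members was 0.24 against 0.021 over all genes. T cell markers were at 41.6 to 53.3 CPM under the RNF138-/- label and at 22.9 to 23.6 CPM in wild type, and their part in these values was not tested. In AOM/DSS tissue 0 of 9 members passed by edgeR against 6.38% of 17752 genes. Bcl3 and Tnip1 were under an unadjusted p of 0.05 (33.8% of genes) and had groups that did not overlap (45.2% of genes), and DESeq2 called 1 member, Bcl3. The median was -0.20 against 0.0056 over all genes, and scaling by total counts shifted all genes by 0.27, which turned the direction of Nfkbib, Nfkbiz, Tnfaip3 and Irak3. All 10 epithelial markers were lower under the RNF138-/- label in AOM/DSS, 1 of them past the test (median log2 fold change -0.92). Their part in the members' values was not tested. An exact permutation test (two-sided) of the CPM, whose smallest possible p is 0.1 for 3 libraries against 3, gave no lower adjusted value than 0.338 over the 27 tests of members and models.

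Between organoids and tissue of the AOM/DSS model they were grown from, 7 of the 9 members were higher in organoids under at least 1 genotype label. In wild type 5 of 9 passed, all higher, Nfkbia, Nfkbib, Nfkbie, Tnfaip3 and Irak3, where 60.7% of 19390 genes passed and 27% were higher. Under the RNF138-/- label 7 of 9 passed, all higher, these 5 with Nfkbiz and Tnip1, where 59.9% of genes passed and 25.7% were higher. The median log2 fold change of the members was 0.78 in wild type against -0.14 over all genes, and 1.80 against -0.22 under the RNF138-/- label. Scaling by total counts shifted all genes by -0.17 and -0.62 and lowered the share of higher calls under the RNF138-/- label from 42.9% to 21.3%. In that scaling 4 members were higher in wild type, without Irak3 (adjusted p = 0.0930), and 6 under the RNF138-/- label, without Nfkbib (adjusted p = 0.0504), and Cyld was lower in both. Leaving out organoid replicate 1 left 2 members, Nfkbia and Tnfaip3, past the test in wild type. Without wild-type AOM/DSS replicate 3 the count stayed at 5, but Nfkbiz, at a log2 fold change of 0.45 with all libraries, passed (1.07, adjusted p = 0.0352) and Irak3 did not. Organoids and tissue also differ in makeup, with leukocyte Ptprc near 0 and fibroblast markers many-fold higher in organoids, and the part of this in the members' levels was not tested. In wild type, organoids and tissue also differ in sex, by the Xist and Y-linked levels given above, so the step from tissue to organoids and sex cannot be told apart there.

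**Figure D4:**
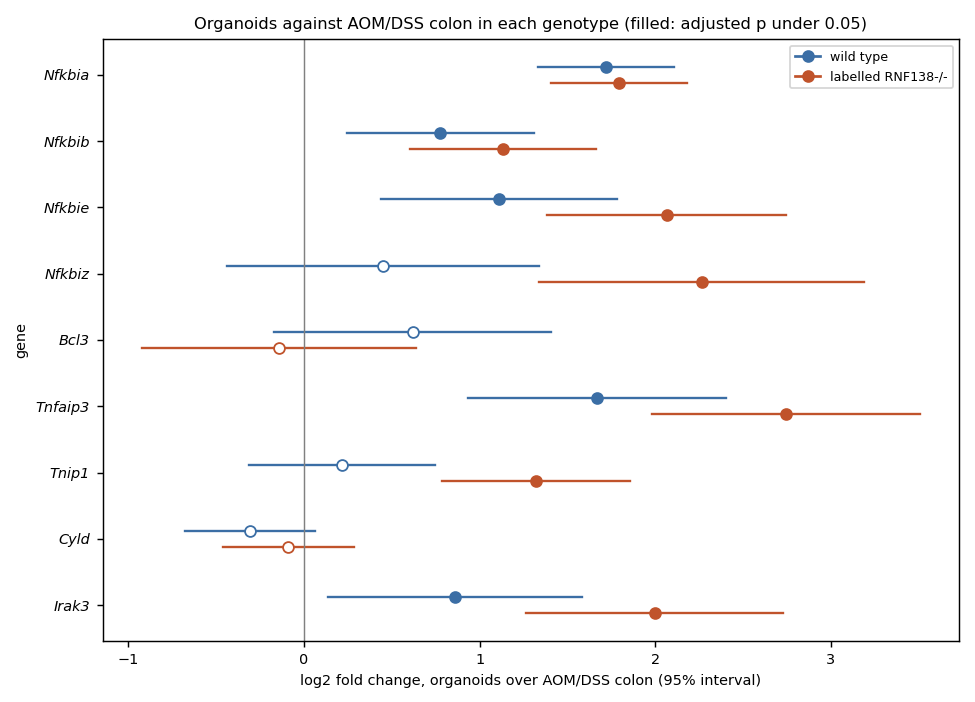
Log2 fold change (x axis) of each member (y axis) between organoids and AOM/DSS colon, for wild type (blue) and libraries labelled RNF138-/- (orange), with 95% intervals from one edgeR fit of 18 libraries, filled where the adjusted p is under 0.05. Tnfaip3, Nfkbiz, Nfkbie, Irak3 and Tnip1 lie further to the right under the RNF138-/- label, Nfkbia lies at nearly the same place in both, and Bcl3 and Cyld are open in both.

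The difference between these differences was tested as an interaction. For Nfkbiz the genotype effect in organoids exceeded that in AOM/DSS tissue by a log2 value of 1.81 ± 0.60 SE (adjusted p = 0.0376), and for Tnip1 by 1.10 ± 0.35 SE (adjusted p = 0.0335), so 2 of 9 members passed, both higher, where 23.3% of genes passed and 13.1% were higher. These 2 were among 5 members at an unadjusted p under 0.05 (36.8% of genes). Both calls were lost when libraries were scaled by total counts (1.31, adjusted p = 0.0564, and 0.63, adjusted p = 0.109). Each call was lost in 8 of the 12 fits that left out 1 library. Both calls were lost without wild-type AOM/DSS replicate 3, where the values were 1.20 (adjusted p = 0.124) and 0.87 (adjusted p = 0.0887). With a replicate block the Nfkbiz call was lost (1.71, adjusted p = 0.0549) and Bcl3 passed as lower (-0.76, adjusted p = 0.0498). For Nfkbie (0.95, adjusted p = 0.129), Tnfaip3 (1.08, adjusted p = 0.114) and Irak3 (1.14, adjusted p = 0.0950) the interaction did not pass, but without wild-type organoid replicate 1 all 3 did (adjusted p = 0.0262, 0.0462 and 0.00424), and Nfkbie also did without wild-type AOM/DSS replicate 3 (adjusted p = 0.0354). In the same contrast 6 of 6 smooth muscle, 4 of 8 macrophage and 3 of 6 fibroblast markers passed as higher (medians 7.05, 2.97 and 2.17). Of 10 epithelial markers 4 passed as higher and 1 as lower, Ptprc passed as higher, and of 6 neutrophil markers 1 passed as lower. The part of these markers in the members' values was not tested. The genotype effect in organoids also cannot be told apart from sex. The AOM/DSS tissue groups are shared by this test and by the comparison above.

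Between the tissue models, AOM/DSS against DSS, 0 of 9 members passed in wild type (19.8% of genes passed) or under the RNF138-/- label (54.7%). At an unadjusted p under 0.05 there was 1 member in each, Nfkbiz in wild type (2.12-fold, adjusted p = 0.0822; 33.8% of genes) and Tnip1 under the RNF138-/- label (ratio 0.688, adjusted p = 0.0780; 60.1% of genes), and DESeq2 called 0. Nfkbiz passed in wild type with no filter on low counts (adjusted p = 0.0343) and with total-count scaling (0.0465). Without replicate 3 of the DSS group labelled RNF138-/-, 3 members passed as lower in AOM/DSS: Nfkbib (-0.78, adjusted p = 0.00589), Nfkbiz (-1.03, adjusted p = 0.0489) and Tnip1 (-0.74, adjusted p = 0.0270). Tnip1 also passed without replicate 2 of that group (-0.73, adjusted p = 0.0360). The genotype effect in AOM/DSS minus that in DSS was -1.75 ± 0.60 SE for Nfkbiz (adjusted p = 0.0613), with 0 members passing where 14.1% of genes did, 1 member at an unadjusted p under 0.05 (30.1% of genes) and 1 by DESeq2. Nfkbiz passed there without replicate 3 of the DSS group labelled RNF138-/- (adjusted p = 0.0241) and without wild-type AOM/DSS replicate 1 (0.0433) or 2 (0.0262). That of organoids minus DSS passed for 0 members where 7.11% of genes did, with 2 members, Nfkbie and Irak3, at an unadjusted p under 0.05 (24.9% of genes) and 0 by DESeq2, and these 2 passed without wild-type organoid replicate 1 (adjusted p = 0.0439 and 0.00719). For Nfkbiz this last difference was 0.069, with a 95% interval from -1.19 to 1.33.

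Other genes of the pathway were set beside the members in 4 lists. The NF-κB subunits and kinases, 13 genes all tested, had 0 past the test in DSS and AOM/DSS between genotypes, and 4 higher and 0 lower in organoids. Among the receptors, adaptors and ubiquitin ligases that lead to IκB destruction, 17 of 18 tested, 0 passed in DSS. In AOM/DSS 1 was lower, the TNF receptor adaptor Tradd (30.9 ± 6.70 CPM under the RNF138-/- label against 66.1 ± 9.65 in wild type, SD, n = 3, log2 fold change -1.15, adjusted p = 0.0359), and in organoids 5 were higher and 1 lower. Of 16 other inhibitors and cofactors of the ubiquitin editors, 0 passed in DSS and AOM/DSS, and 2 were higher and 3 lower in organoids. The last included Usp18, an inhibitor of interferon signaling (6.63 ± 0.726 CPM against 17.2 ± 6.84, log2 fold change -1.42, adjusted p = 0.00913).

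Inflammatory target genes of NF-κB were the last list, of 20 genes. In DSS 0 of 13 tested passed by edgeR between genotypes, with 6 at an unadjusted p under 0.05, all higher, and a median log2 fold change of 0.78. In AOM/DSS 2 of 18 were higher and 0 lower, with a median of 1.46: the cytokine gene Il1b (44.4 ± 18.7 CPM under the RNF138-/- label against 10.3 ± 2.30, log2 fold change 2.05, adjusted p = 0.0343) and the acute-phase gene Saa3 (104 ± 20.3 against 36.4 ± 11.7 CPM, 1.46, adjusted p = 0.0381). Without replicate 1, or without replicate 2, of the libraries labelled RNF138-/-, 0 genes of all those tested in AOM/DSS passed by edgeR, so these calls and that of Tradd were lost. Of 5 neutrophil markers tested there, 3 were higher at an unadjusted p under 0.05 (median log2 fold change 1.76), and their part in the Il1b and Saa3 values was not tested. In the same libraries the members' median was -0.20, as given above. In organoids 6 were higher and 2 lower, led by Il1b (1.84 ± 0.365 against 0.182 ± 0.259 CPM, 3.41, adjusted p = 0.0115) and Csf3, the gene of a granulocyte growth factor (15.1 ± 9.03 against 1.76 ± 0.325 CPM, 3.07, adjusted p = 0.00333), while the lymphotoxin gene Ltb was lower (0.689 ± 0.0574 against 1.96 ± 0.863 CPM, -1.53, adjusted p = 0.0229).

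Between AOM/DSS and DSS, 10 of 19 inflammatory targets were higher and 0 lower in wild type (median 2.22), and 14 were higher and 2 lower under the RNF138-/- label (median 2.86), where 0 of 9 members passed in either. Over all genes 19.8% passed in wild type and 54.7% under the RNF138-/- label. Of 6 neutrophil markers, 4 passed as higher and 0 as lower under each label (medians 3.54 and 4.50), and their part in these values was not tested. The neutrophil chemokine genes led in both, with Cxcl5 at 34.7 ± 29.9 CPM in AOM/DSS against 0.134 ± 0.0841 in DSS in wild type (log2 fold change 7.94, adjusted p = 6.84e-05) and Cxcl2 at 28.1 ± 10.7 against 0.0770 ± 0.0924 CPM under the RNF138-/- label (8.40, adjusted p = 6.22e-07). Between organoids and AOM/DSS tissue, 9 of 19 targets were higher and 4 lower in organoids in wild type, and 9 were higher and 6 lower under the RNF138-/- label, where 60.7% and 59.9% of all genes passed. In wild type the cytokine gene Il6 had 181 ± 56.0 against 0.261 ± 0.184 CPM (9.27, adjusted p = 8.50e-08) and the monocyte chemokine gene Ccl2 had 503 ± 140 against 1.97 ± 0.351 CPM (7.98, adjusted p = 2.58e-10). Il1b was lower in organoids, at 0.182 ± 0.259 against 10.3 ± 2.30 CPM (-5.94, adjusted p = 9.25e-07). Under the RNF138-/- label Il6 had 219.7 ± 44.5 against 1.16 ± 1.16 CPM (7.61), Ccl2 had 829 ± 214 against 4.24 ± 0.422 CPM (7.61), and Il1b had 1.84 ± 0.365 against 44.4 ± 18.7 CPM (-4.58), each past the test. Fitted changes of genes at such low counts depend on the prior count of the fit.

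The genes nearest in pattern to the 3 members with the widest range of group means were sought among 12424 genes with a mean of at least 5 CPM, by the root mean square difference of centred log2 CPM over the 18 libraries. Nearest to Nfkbiz was Zc3h12a, which encodes the endoribonuclease Regnase-1 (0.352), and Itgb3 was also among the nearest genes (0.548). Nearest to Tnfaip3 were C1ra (0.339), Slc2a1 (0.343) and Olfml3 (0.371), and nearest to Nfkbie were Adcy3 (0.208), H6pd (0.236) and Sh2b2 (0.243). Among the members themselves the closest pair was Nfkbib with Tnip1 (0.333), followed by Nfkbia with Tnfaip3 (0.425) and Nfkbia with Nfkbie (0.451), and the farthest was Tnfaip3 with Cyld (1.27). The distances cover tissue and organoids together, and they carry no test.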

How the data were processed

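RNA from colorectal tissue and organoids had been made into TruSeq libraries from 1 µg total RNA. The deposited counts are raw whole-number reads per gene that the authors made by alignment to mm10, and the submitters' processing notes name STAR 2.6.1d, HTSeq 0.11.2 and DESeq2. The role of each tool and the use of strand are not given in the sources used here. A deposited table of the authors' own genotype comparisons (log2 fold changes and p-values) was not used.

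Libraries were grouped by their GEO labels. Counts were tested with edgeR 4.0.16 (R 4.3.3): TMM normalization, filterByExpr, glmQLFit and glmQLFTest, with Benjamini-Hochberg adjustment over all genes tested and a threshold of 0.05. Genotype was fitted in the 6 libraries of each model, and contrasts between models and interactions in 1 fit of 18 libraries. Levels are TMM-scaled CPM, divided by kilobases of exon from GENCODE M21 (99.84% of IDs matched) where genes are compared. Log2 of CPM for pattern distances used a pseudocount of 0.5 CPM. Total counts of 11514716 to 24390082 per library set the precision, together with 3 libraries a group.

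The genes named are the 9 members and, per comparison, at most 2 higher and 2 lower passing genes of 4 pathway lists, by fold change, besides the 3 genes nearest to each of 3 members, of which 1 is not reported here. The members and lists were chosen with earlier results of these data known. Scripts were tested on simulated data. Replicates of a group differed by more than sampling noise, so none was counted as a duplicate. Alternatives were RLE scaling, no filter, DESeq2 1.42.0, a replicate block, other sets of libraries in the fit, a Y-linked covariate, each library left out and, added after seeing the data, scaling by total counts. The covariate was fitted in DSS and AOM/DSS only, where every library had Y-linked reads. It therefore follows the level of the Y-linked genes and does not adjust for sex.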

Additional observations from a re-analysis of the deposited data

Results flagged for a closer look

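For 2 members the genotype effect differed between organoids and AOM/DSS tissue by a test of that difference (edgeR, 1 fit of 18 libraries). Over all genes 23.3% passed this test and 13.1% were higher, so 2 of 9 is a share near that of all genes. Each of the 2 calls was lost in 8 of the 12 fits without 1 library. Nfkbiz had a difference of 1.81 on the log2 scale (95% interval 0.55 to 3.08, adjusted p = 0.0376), with adjusted p from 0.00735 to 0.124 over 17 alternatives. Tnip1 had a difference of 1.10 (95% interval 0.36 to 1.85, adjusted p = 0.0335), with adjusted p from 0.00637 to 0.109 over 17 alternatives. In the same contrast 6 of 6 smooth muscle, 4 of 8 macrophage and 3 of 6 fibroblast markers passed as higher. Of 10 epithelial markers 4 passed as higher and 1 as lower, Ptprc passed as higher, and of 6 neutrophil markers 1 passed as lower. The part of these markers in the members' values was not tested. Genotype cannot be told apart from sex in the organoids.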

How the results depend on the processing

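Among the comparisons, 0 members passed between genotypes in DSS but 1, Nfkbiz, did with no filter on low counts (adjusted p = 0.00884), by DESeq2 (0.0105) and with the Y-linked covariate (0.0466). In AOM/DSS 1 member, Bcl3, passed by DESeq2. In organoids 4 members passed by DESeq2 and with no filter, with Irak3 gained (0.0418 and 0.00519). Nfkbiz also made the count 1 for AOM/DSS against DSS in wild type with no filter (0.0343) or total-count scaling (0.0465), and 1 for the genotype effect of AOM/DSS minus DSS with no filter (0.0167) or DESeq2 (0.0235). Organoids against AOM/DSS in wild type had 3 members with only the 6 libraries compared, without Nfkbie (0.0669) and Irak3 (0.148). Organoids minus AOM/DSS had 0 under total-count scaling. With 1 library left out, counts ran from 0 to 1 in DSS, 2 to 6 in organoids, 0 to 3 for AOM/DSS against DSS under the RNF138-/- label, 2 to 5 for organoids against AOM/DSS in wild type, and, for the interactions, 0 to 1 (AOM/DSS minus DSS), 0 to 5 (organoids minus AOM/DSS) and 0 to 2 (organoids minus DSS). The cause was not tested.

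Whether the replicate numbers pair the samples was not settled. Deviations from the group mean were correlated between wild-type and RNF138-/- labelled libraries with the same number. The correlations were 0.230, 0.092 and 0.483 in DSS, 0.028, 0.207 and 0.070 in AOM/DSS and -0.181, -0.074 and 0.054 in organoids. A wild-type sample correlated best with its own number throughout in AOM/DSS, for replicate 3 in DSS and for none in organoids. With so few libraries a group, these correlations cannot exclude a pairing or a shared batch. With a replicate block, 0, 0 and 2 members passed between genotypes in DSS, AOM/DSS and organoids, where Tnfaip3 was lost (0.0538). Between models the blocked counts were 0, 0, 5 and 7, with Irak3 lost (0.0590) and Bcl3 gained (0.047) in wild-type organoids, and for the interactions 0, 2 and 0, with Nfkbiz lost (0.0549) and Bcl3 gained as lower (0.0498) for organoids minus AOM/DSS.

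Over all genes, the calls between genotypes in DSS were 15, against 362 with no filter, 394 by DESeq2, 91 with the block and 211 with the Y-linked covariate. In AOM/DSS they were 1132, against 1871 with no filter, 4000 by DESeq2, 4560 in the fit of 18 libraries and 449 with the covariate. In organoids they were 5436, against 3258 in the fit of 18 libraries. AOM/DSS against DSS in wild type had 3842, against 2053 in the fit of 6 libraries, and organoids minus DSS had 1378, against 2363 by DESeq2. With 1 library left out, the genotype counts ran from 0 to 147 in DSS, 0 to 1637 in AOM/DSS and 2708 to 6871 in organoids. Scaling by total counts moved the share of calls that were higher from 51.1% to 65.7% for AOM/DSS against DSS under the RNF138-/- label, and for the interactions from 29.9% to 44.1% (AOM/DSS minus DSS), 56.1% to 27.2% (organoids minus AOM/DSS) and 63.6% to 35.2% (organoids minus DSS).

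Log2 values of members that turned direction had not passed the test. Between genotypes, Nfkbib in DSS was -0.0084 with the block, -0.023 under total-count scaling and -0.075 with the covariate. Under total-count scaling, AOM/DSS gave 0.15 for Nfkbib, 0.044 for Nfkbiz, 0.089 for Tnfaip3 and 0.034 for Irak3, and organoids gave -0.041 for Bcl3. That scaling also gave 0.18 for Nfkbib and 0.14 for Cyld (AOM/DSS minus DSS), -0.38 for Nfkbia, -0.10 for Nfkbib and -0.26 for Cyld (organoids minus AOM/DSS), and -0.086 for Nfkbiz and -0.12 for Cyld (organoids minus DSS). Nfkbia in AOM/DSS against DSS under the RNF138-/- label was -0.017 with RLE scaling, -0.016 by DESeq2 and -0.0064 with 6 libraries, and Nfkbie for AOM/DSS minus DSS was -0.0081 with RLE scaling and -0.0075 by DESeq2.

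Leaving out 1 library turned these ranges. Between genotypes in DSS: Nfkbib -0.17 to 0.28, Tnfaip3 -0.27 to 0.46. In AOM/DSS: Nfkbib -0.26 to 0.00056, Nfkbie -0.032 to 0.60, Nfkbiz -0.56 to 0.35, Tnfaip3 -0.38 to 0.036. In organoids: Cyld -0.11 to 0.022. AOM/DSS against DSS in wild type: Nfkbie -0.031 to 0.64, Bcl3 -0.49 to 0.010, Tnip1 -0.29 to 0.094. The same under the RNF138-/- label: Nfkbia -0.18 to 0.26, Bcl3 -0.23 to 0.46, Tnfaip3 -0.22 to 0.60, Cyld -0.090 to 0.24. Organoids against AOM/DSS: Tnip1 -0.10 to 0.45 in wild type, Bcl3 -0.35 to 0.089 under the RNF138-/- label. AOM/DSS minus DSS: Nfkbib -0.40 to 0.096, Nfkbie -0.25 to 0.35, Bcl3 -0.010 to 0.66, Tnfaip3 -0.66 to 0.13, Cyld -0.30 to 0.082, Irak3 -0.072 to 0.18. Organoids minus AOM/DSS: Nfkbia -0.031 to 0.21. Organoids minus DSS: Nfkbia -0.34 to 0.048, Nfkbib -0.016 to 0.46, Nfkbiz -0.24 to 0.69, Cyld -0.060 to 0.33. Of member values recomputed with a library left out, 601 kept their direction and side of the threshold, 55 turned direction, 18 gained a call and 28 lost it. Under other settings the counts were 487, 20, 14 and 10. Of 54 group levels, 15 moved by more than 1 SD with CPM by total counts. Most of these lay in the AOM/DSS and organoid groups labelled RNF138-/-. Examples in those organoids are Nfkbia (316 to 253 CPM) and Tnfaip3 (401 to 321 CPM).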
